A study of Citrus sinensis with 48 samples.

Results

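The leaves compared here were from Cleopatra mandarin (Citrus reshni), a mandarin grown as a rootstock, under high light (HL-Cleo, 3 libraries) and under control conditions (CT-Cleo, 3 libraries). These 6 libraries were taken from a series of 48, and every gene of the deposited table was considered, with 23721 of 30136 passing the filter on low counts. The series holds 8 treatments in each of 2 genotypes: control, high light (HL), heat stress (HS), water stress (WS), each pair of these stresses (WS+HL, HL+HS, WS+HS) and all 3 at once. Levels of some genes are given in every Cleo group. Besides CT-Cleo, 3 groups enter tests with HL-Cleo. They are Cleopatra mandarin under heat stress (HS-Cleo), and Carrizo citrange, a hybrid of Poncirus trifoliata and Citrus sinensis, under high light (HL-Car) and control conditions (CT-Car), with 3 libraries each. Light intensity, temperature, duration and plant age were not stated in the labels, and the labels name no transgene or mutation in any group. The labels number the replicates as biological without saying whether each came from 1 plant or from a pool. A p-value here rests on the spread among the 3 libraries within each group, estimated over the 16 groups of the series. How far that spread is one between plants is not known.

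Leaves that absorb more light than photosynthesis can use dissipate the excess as heat in the antenna, through a xanthophyll cycle and the PsbS protein, and replace damaged photosystem II subunits with chloroplast proteases of the FtsH family. Light absorbed in excess also produces reactive oxygen, which ascorbate peroxidases, superoxide dismutases and peroxiredoxins remove. Heat stress transcription factors (HSFs) turn on genes of small heat shock proteins, HSP70, HSP90 and the disaggregase ClpB, which hold, refold or release damaged proteins, and plants use them under strong light as well as in heat.

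The HL-Cleo libraries held 42121411 to 58265477 counts and the CT-Cleo libraries 50422463 to 54884762. The share of counts on ribosomal RNA genes was 0.846% to 1.03% in HL-Cleo and 0.662% to 3.75% in CT-Cleo, the highest value being that of CT-Cleo replicate 3. This library is the only one of the 6 with an unexplained mark in its column name, and it stood apart: it differed from the other CT-Cleo libraries by a median chi-square of 7.92 and 9.88 per gene, against 1.75 to 2.00 between HL-Cleo libraries and 2.14 between the other CT-Cleo pair. No pair of libraries agreed within sampling noise. Results that turn on this library are therefore given with and without it.

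Most genes called under high light changed less than 2-fold. The largest rises among well expressed genes with a described product were in heat shock proteins and their cofactors. Of all genes tested, 4191 (17.7%) were higher and 4272 (18.0%) lower in HL-Cleo than in CT-Cleo (edgeR's quasi-likelihood test, called at an adjusted p under 0.05), so 35.7% were called. A log2 fold change below is HL-Cleo over CT-Cleo, with its standard error. Among the genes called higher, 3023 (72.1%) rose less than 2-fold and 375 rose at least 8-fold. Among those called lower, 3428 (80.2%) fell less than 2-fold and 106 fell at least 8-fold. Without CT-Cleo replicate 3 the count of called genes was 7717, and with unmarked libraries alone it was 9115. Of 19 tested markers of mesophyll, the photosynthetic tissue of a leaf, 12 were higher and 0 lower in HL-Cleo, and their summed level was 57053 to 62525 normalised read counts (CPM, scaled by TMM) in HL-Cleo and 41491 to 51955 CPM in CT-Cleo. Without CT-Cleo replicate 3, 15 of the mesophyll markers were higher. They are chlorophyll a-b binding proteins, rubisco small chains and rubisco activases, kinds of gene described again below. Their rise is thus not separate evidence on tissue make-up. In leaf RNA as a whole, fewer cells of a type and less RNA per cell cannot be told apart.

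The 12 largest rises among well expressed genes with a described product were, without exception, genes of heat shock proteins or their cofactors. One was in BAG family molecular chaperone regulator 6 (LOC102629351), a protein that binds HSP70 and calmodulin in Arabidopsis. It had 257, 249 and 274 CPM in HL-Cleo, against 0.0546, 0 and 0 CPM in CT-Cleo. CT-Cleo held 3 counts of it in all, in replicate 1, so the ratio of the groups was 13353 (95% counting interval 4569 to 64755), an interval that covers counting error only. A 17.7 kDa class II heat shock protein (LOC102608313) had 181, 166 and 187 CPM in HL-Cleo, against 0, 0.0375 and 0 CPM in CT-Cleo, with 2 counts over the controls and a ratio of 13716 (95% counting interval 3797 to 113266). The groups were apart in both genes, and the controls were close to no signal. A small heat shock protein (LOC102630544), of a type that enters the endoplasmic reticulum in other plants, had 1893, 1754 and 2065 CPM in HL-Cleo, against 0.601, 0.713 and 0.642 CPM in CT-Cleo (log2 fold change 11.51 ± 0.31). Heat shock 70 kDa protein 5-like (LOC102625591) had 1879.9, 1749.7 and 1869 CPM in HL-Cleo, against 0.692, 0.882 and 0.707 CPM in CT-Cleo (11.23 ± 0.21). Over all 12 genes, no control library exceeded 6.57 CPM and no high light library was below 166 CPM. These genes were chosen for large rises and for groups that do not overlap, so the gap follows in part from the choice. The level filter used the mean of all 6 libraries, which a gene near 0 in the controls passed through its high light level.

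**Figure D1:**
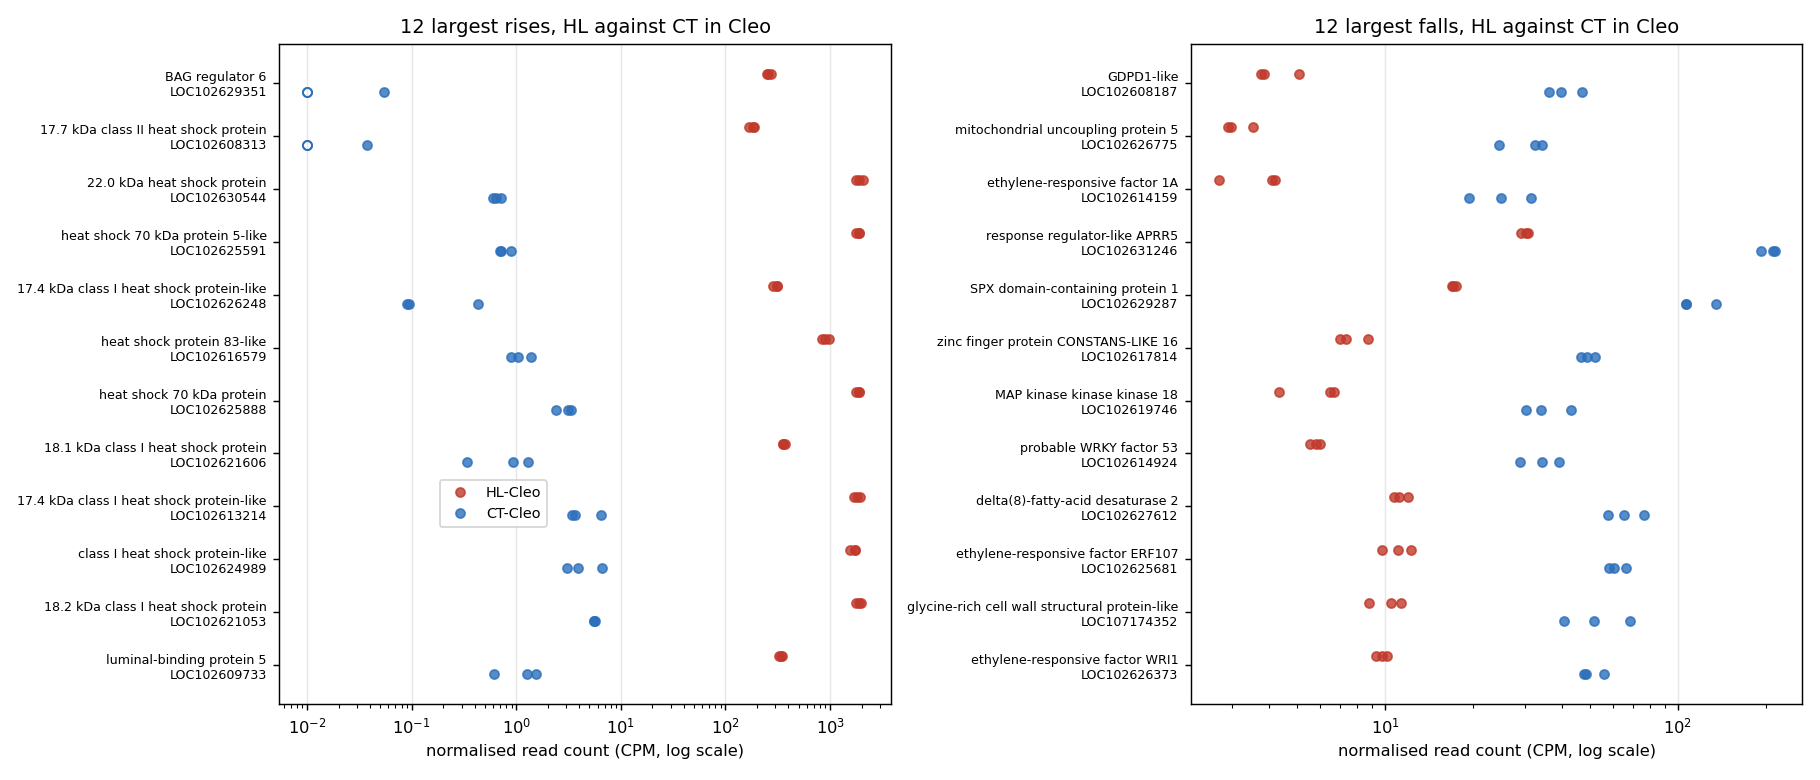
Normalised read counts (CPM, log axis) of the 12 genes with the largest rises (left) and the 12 with the largest falls (right) among called and described genes whose mean log2 CPM was 3 or more; each point is 1 library, red for HL-Cleo and blue for CT-Cleo, and open circles at the left edge are libraries with 0 counts. Genes whose groups overlap were left out when these were chosen, so the red and blue points of no gene overlap. The gaps are far wider for the rises than for the falls, and the axes differ in range.

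Of 35 small heat shock proteins tested, which bind unfolding proteins without using ATP, 30 were higher and 1 lower, with a median log2 fold change of 6.44 (6.23 with genes near 0 counts set to a floor of 3 counts), against a median of 0.00 over all genes. Together they held 25923 to 28383 CPM in HL-Cleo and 637 to 841 CPM in CT-Cleo, ranges that lie far apart. Reads of near-identical copies may have been divided among them, which leaves the values of single copies uncertain. An 18.1 kDa class I protein (LOC102621606) had 367, 353 and 352 CPM in HL-Cleo, against 0.928, 0.338 and 1.28 CPM in CT-Cleo (8.73 ± 0.25). An 18.2 kDa class I protein (LOC102621053) had 1956, 1776 and 1877 CPM in HL-Cleo, against 5.71, 5.48 and 5.59 CPM in CT-Cleo (8.38 ± 0.17). A 17.4 kDa class III protein (LOC102627015), of a class found in the nucleus and cytosol of Arabidopsis, had 702, 692 and 702 CPM in HL-Cleo, against 8.24, 8.99 and 10.7 CPM in CT-Cleo (6.23 ± 0.11). In each of them the 3 high light libraries lay close together and far above the controls.

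All 5 tested disaggregases of the ClpB and HSP100 type were higher (median 6.31). ClpB1 (LOC102620452), the cytosolic form that Arabidopsis needs to survive severe heat, had 5138, 4768 and 4958 CPM in HL-Cleo, against 63.8, 63.8 and 60.2 CPM in CT-Cleo (6.31 ± 0.09, adjusted p = 1.48e-38). The organelle forms rose less, ClpB3 of the chloroplast (LOC102616406) by 2.41 ± 0.09 and ClpB4 of the mitochondrion (LOC102622978) by 1.42 ± 0.07.

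Of 22 HSP70 genes 16 were higher and 0 lower, with a median of 2.04 (1.43 at the floor of 3 counts). Heat shock 70 kDa protein LOC102625888 had 1899, 1767 and 1899 CPM in HL-Cleo, against 3.13, 3.36 and 2.42 CPM in CT-Cleo (9.28 ± 0.15). Heat shock 70 kDa protein 8 (LOC102624827) rose by 6.59 ± 0.17. The summed level of the family was 17565 to 18611 CPM in HL-Cleo and 3418 to 3507 CPM in CT-Cleo.

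All 6 HSP90 genes, which fold kinases and receptors and hold HSFs inactive, were higher (median 1.79). The cytosolic forms named HSP83 moved most: LOC102616579 had 886, 846 and 980.2 CPM in HL-Cleo, against 1.04, 0.882 and 1.37 CPM in CT-Cleo (9.70 ± 0.21), and LOC102628301 had 4854, 4497 and 4827 CPM in HL-Cleo, against 124, 128 and 136 CPM in CT-Cleo (5.19 ± 0.09). One was almost silent in the controls and the other was already present. The form of the endoplasmic reticulum, endoplasmin (LOC102608412), rose by 1.77 ± 0.06, the chloroplast form HSP90-5 (LOC102629966) by 1.81 ± 0.07 and the mitochondrial form HSP90-6 (LOC102611150) by 0.89 ± 0.08.

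The cofactors that serve HSP90 and HSP70 rose selectively. Of 15 genes on this list 5 were higher and 0 lower (median 0.00). The 5 were BAG6, the activator of HSP90's ATPase (LOC102621083, 4.41 ± 0.07), the HSP70-HSP90 organizing protein HOP3-like (LOC102624310, 3.77 ± 0.07), the prolyl isomerase FKBP62 (LOC102614954, 2.98 ± 0.08) and BAG1 (LOC102620223, 1.11 ± 0.07). HOP3-like, which bridges the chaperones, had 2140.2, 2109.7 and 2175 CPM in HL-Cleo, against 157, 165 and 150.1 CPM in CT-Cleo. Among 62 DnaJ proteins, which hand substrates to HSP70, 21 were higher and 13 lower (median 0.07). ERDJ3A (LOC102617203), of the endoplasmic reticulum, had 549, 550.2 and 538 CPM in HL-Cleo, against 9.12, 10.1 and 8.09 CPM in CT-Cleo (5.91 ± 0.09). DnaJ subfamily B member 13 (LOC102619066) rose by 4.15 ± 0.07 and ANJ1 (LOC102627308) by 3.51 ± 0.07.

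Of 22 heat stress transcription factors 10 were higher and 4 lower (median 0.36). HSF30 (LOC102620157), named after the tomato factor that belongs to the HsfA2 type and is itself induced by stress, had 5511, 5251 and 5708 CPM in HL-Cleo, against 405, 419.8 and 379 CPM in CT-Cleo (3.77 ± 0.11, adjusted p = 1.63e-28). A-7a (LOC102620280) had 1184, 1109.8 and 1162 CPM in HL-Cleo, against 161, 164 and 143 CPM in CT-Cleo (2.88 ± 0.08). The class B factors, which lack the activation domain of class A and often repress, rose too, B-2a (LOC102626069) by 2.74 ± 0.06 and B-2b (LOC102619398) by 2.55 ± 0.08. In all 4 factors the high light libraries stood above every control.

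Folding genes of other compartments moved less. Of 42 genes of endoplasmic reticulum folding 14 were higher and 2 lower (median 0.17). Some of them, such as endoplasmin (LOC102608412) and ERDJ3A (LOC102617203), are also counted among the HSP70, HSP90 or DnaJ genes above. Luminal-binding protein 5 (LOC102609733), an HSP70 of that compartment, had 337, 324 and 345 CPM in HL-Cleo, against 0.619, 1.56 and 1.26 CPM in CT-Cleo (8.20 ± 0.26), and calnexin (LOC102617406), which holds glycoproteins, rose by 1.53 ± 0.06. Of 28 chaperonins, barrel-shaped folding machines, 13 were higher and 2 lower (median 0.22), among them the mitochondrial 10 kDa form (LOC102610529, 2.55 ± 0.13) and CPN60-2 (LOC102620413, 1.94 ± 0.07). Of 46 proteasome subunits 7 were higher and 2 lower (median 0.06). Without CT-Cleo replicate 1, 4 proteasome genes were higher, but 8 were without CT-Cleo replicate 3 and 12 with the column mark as a term in the fit. Without CT-Cleo replicate 2 or HL-Cleo replicate 2, 4 genes of endoplasmic reticulum folding were lower. Of 23 autophagy genes, which deliver cell contents to the vacuole, 1 was higher and 9 lower (median -0.21), below the background for rises and above it for falls. Without a single library 0 to 2 autophagy genes were higher and 7 to 10 lower.

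Of 13 photoprotection genes tested, 8 were higher and 0 lower, with a median log2 fold change of 0.35, but 5 were higher without CT-Cleo replicate 1, CT-Cleo replicate 2 or HL-Cleo replicate 3. Without CT-Cleo replicate 3, and also in unmarked libraries alone, 10 were higher and 1 lower. Early light-induced proteins bind pigments released from photosystems under strong light, and both genes named early light-induced protein 1 rose. LOC102578039 had 2586, 2390.5 and 2601 CPM in HL-Cleo, against 1076, 1063 and 1286 CPM in CT-Cleo (1.15 ± 0.11), and LOC102626141 had 128, 105 and 125 CPM in HL-Cleo, against 30.4, 29.5 and 34.8 CPM in CT-Cleo (1.92 ± 0.13). The lowest high light library of each stood well above the highest control.

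Enzymes of the xanthophyll cycle moved less. Violaxanthin de-epoxidase (VDE), which makes zeaxanthin in strong light, had 185, 184 and 181 CPM in HL-Cleo, against 123.5, 124 and 143 CPM in CT-Cleo (0.49 ± 0.08). Zeaxanthin epoxidase (LOC102577984), which runs the reverse step, had 572, 578 and 564 CPM in HL-Cleo, against 442, 468 and 438 CPM in CT-Cleo (0.35 ± 0.06). The values of both were close within each group and the groups did not overlap. PsbS, listed as photosystem II 22 kDa protein (LOC102630024), had 2640.1, 2492 and 2600.0 CPM in HL-Cleo, against 1809, 1754 and 2486 CPM in CT-Cleo (0.35 ± 0.13, adjusted p = 0.034). Without CT-Cleo replicate 3 PsbS rose by 0.53 (adjusted p = 0.00255), but without any 1 of the other 5 libraries it was not called (adjusted p = 0.0506 to 0.177). PGR5 (LOC102610738), of cyclic electron flow around photosystem I, overlapped between the groups, with 502, 493 and 559.8 CPM in HL-Cleo, against 338, 323 and 524 CPM in CT-Cleo (0.39 ± 0.14), and rose by 0.65 without CT-Cleo replicate 3. It was not called without CT-Cleo replicate 1 or 2 or HL-Cleo replicate 3 (adjusted p = 0.11 to 0.189).

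Genes of photosystem repair and assembly were led by the FtsH 6 protease of the thylakoid (LOC102613766), a zinc metalloprotease linked in Arabidopsis to light-harvesting complex breakdown and heat memory. It had 171, 172 and 179 CPM in HL-Cleo, against 3.15, 3.32 and 1.86 CPM in CT-Cleo (5.96 ± 0.14, adjusted p = 3.38e-31). Of 26 genes on this list 16 were higher and 0 lower (median 0.33), and apart from FtsH 6 the rises were small. Photosystem II protein PSB28 (LOC102611091), an assembly factor, had 231, 230.1 and 239 CPM in HL-Cleo, against 111, 121 and 135 CPM in CT-Cleo (0.93 ± 0.13). The assembly factor HCF136 (LOC102609414) rose by 0.63 ± 0.07 and the repair protein PSB27-H1 (LOC102615667) by 0.63 ± 0.08.

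Of 36 photosystem and light harvesting genes 20 were higher and 1 lower (median 0.33), with 32 higher without CT-Cleo replicate 3 and 34 in unmarked libraries alone. The largest rise was in the psbY core protein of photosystem II (LOC107176823), with 81.4, 77.9 and 84.6 CPM in HL-Cleo, against 9.76, 9.46 and 8.52 CPM in CT-Cleo (3.13 ± 0.12). Photosystem I chlorophyll a/b-binding protein 6 (LOC102607051) rose by 0.72 ± 0.10. Of 23 chlorophyll and tetrapyrrole genes 19 were higher and 1 lower (median 0.46). They included glutamyl-tRNA reductase 1 (LOC102624392, 0.77 ± 0.07), which makes the first committed step, porphobilinogen deaminase (LOC102630676, 0.71 ± 0.10) and protoporphyrinogen oxidase 1 (LOC102607324, 0.76 ± 0.05). Glutamyl-tRNA reductase 1 had 176, 174 and 173 CPM in HL-Cleo, against 102, 99.8 and 105 CPM in CT-Cleo. Of 43 chloroplast ribosomal proteins 35 were higher and 0 lower (median 0.53), among them L35 (LOC102622751, 0.78 ± 0.11) and S10 (LOC102615024, 0.74 ± 0.12).

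Of 166 cytosolic ribosomal proteins 22 were higher and 4 lower (median 0.04), near or below the background, and that count depended on the controls. It was 57 higher without CT-Cleo replicate 3, 88 in unmarked libraries alone and 8 without CT-Cleo replicate 2.

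Of 23 Calvin cycle and rubisco genes 15 were higher and 1 lower (median 0.39). A gene of rubisco activase, the ATP-driven enzyme that clears inhibitors from rubisco and is itself heat labile, rose most. This gene (LOC102630057) had 2244, 2049 and 2389 CPM in HL-Cleo, against 37.3, 38.3 and 41.4 CPM in CT-Cleo (5.84 ± 0.09, adjusted p = 6.95e-38). A second activase gene (LOC102627294) had 11288, 10552 and 10773 CPM in HL-Cleo, against 7914, 8125 and 8031 CPM in CT-Cleo (0.44 ± 0.11). Per length, the first stood at 1637 ± 107 TPM in HL-Cleo and 32.9 ± 1.27 TPM in CT-Cleo, and the second at 7901 ± 176 TPM in HL-Cleo and 6702 ± 559 TPM in CT-Cleo, so the second remained the more abundant transcript. The subunits of the chaperonin that assembles rubisco differed: alpha LOC102614876 rose by 0.96 ± 0.10 and beta LOC102625215 by 1.60 ± 0.12, while another beta gene (LOC102609990) had 23.7, 21.6 and 22.1 CPM in HL-Cleo, against 46.5, 51.7 and 46.8 CPM in CT-Cleo (-1.10 ± 0.08). Fructose-bisphosphate aldolase 1 (LOC102606603), among the most abundant called genes, had 18372, 16806 and 18032 CPM in HL-Cleo, against 9179, 9123 and 10804 CPM in CT-Cleo (0.87 ± 0.11), and the rubisco small chain (LOC102612988) rose by 0.47 ± 0.14.

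Of 27 photorespiration genes 9 were higher and 10 lower (median 0.02), so the pathway did not move one way. Glycine dehydrogenase of the mitochondrion (LOC102627653) had 3347, 3198 and 3281 CPM in HL-Cleo, against 2120.4, 2315 and 1862 CPM in CT-Cleo (0.64 ± 0.09). Of 66 sugar transporters and sucrose enzymes 7 were higher and 30 lower (median -0.34). Sucrose synthase (LOC102616003), which cleaves sucrose for use in growing tissue, had 658, 633 and 643 CPM in HL-Cleo, against 1619, 1597 and 1618 CPM in CT-Cleo (-1.32 ± 0.09), with narrow and separate groups. A polyol transporter 5-like gene (LOC102616424) also fell (-1.27 ± 0.10). Of 21 starch breakdown genes 6 were higher and 8 lower, and of 18 starch synthesis genes 3 were higher and 4 lower. Beta-amylase 1 (LOC102626673), which frees maltose from starch in stressed leaves, rose by 0.83 ± 0.08, and granule-bound starch synthase 1 (LOC102625907) by 1.90 ± 0.12.

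Clock genes moved in both directions. Of 20 tested, 7 were higher and 9 lower (median -0.18). REVEILLE 1 (LOC102630458), a morning MYB-like factor, had 317, 318 and 329 CPM in HL-Cleo, against 85.5, 83.8 and 83.8 CPM in CT-Cleo (1.93 ± 0.05), and REVEILLE 7-like (LOC102614255) had 745, 738 and 721 CPM in HL-Cleo, against 216, 227 and 211 CPM in CT-Cleo (1.75 ± 0.07). APRR5 (LOC102631246), a pseudo-response regulator that represses morning genes later in the day, had 30.7, 29.0 and 30.3 CPM in HL-Cleo, against 211, 214 and 193 CPM in CT-Cleo (-2.78 ± 0.06). REVEILLE 6 (LOC102627121), of a branch of the family that activates evening genes in Arabidopsis, fell (-1.19 ± 0.08). The groups did not overlap in any of these 4 genes. The time of day of sampling is not given in the sources used here.

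Of 62 light receptor and signalling genes 15 were higher and 17 lower (median 0.01). A gene like UVR8, the receptor of ultraviolet-B light (LOC102614234), had 321, 320.0 and 329 CPM in HL-Cleo, against 80.4, 80.3 and 79.6 CPM in CT-Cleo (2.01 ± 0.09). CONSTANS-LIKE 16 (LOC102617814) had 7.34, 8.73 and 7.002 CPM in HL-Cleo, against 48.8, 46.5 and 51.96 CPM in CT-Cleo (-2.67 ± 0.09), and CONSTANS-LIKE 4 (LOC102612309) also fell (-2.08 ± 0.15). These zinc finger proteins are regulators under light and clock control.

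Antioxidant genes changed in part. Of 33 genes of the ascorbate-glutathione cycle and ascorbate synthesis 12 were higher and 1 lower (median 0.00). Cytosolic ascorbate peroxidase 2 (LOC102622372), which removes hydrogen peroxide, had 167, 153 and 178 CPM in HL-Cleo, against 28.9, 26.7 and 37.8 CPM in CT-Cleo (2.42 ± 0.11). Another cytosolic form (LOC102629716) rose by 0.40 ± 0.09. Of 10 superoxide dismutases and catalases 4 were higher and 0 lower (median 0.19). They were catalase isozyme 1 (LOC102616866, 0.41 ± 0.10), the copper chaperone of superoxide dismutase (LOC102620720, 0.66 ± 0.08), iron superoxide dismutase 3 (LOC102622588, 0.64 ± 0.12) and a copper-zinc form (LOC102628406, 0.22 ± 0.06). Of 76 peroxiredoxins, glutathione peroxidases and thioredoxins 20 were higher and 11 lower, with 33 higher in unmarked libraries alone and 5 lower without CT-Cleo replicate 3. Peroxiredoxin Q (LOC102620446), which detoxifies peroxides at the thylakoid, had 339.8, 334 and 362 CPM in HL-Cleo, against 194, 207 and 207 CPM in CT-Cleo (0.77 ± 0.10). Of 60 glutathione S-transferases 15 were higher and 6 lower (median 0.00).

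WRKY, ERF and MYB factors were lower more often than higher. Of 54 WRKY factors 6 were higher and 22 lower (median -0.42). WRKY33 (LOC102608921), which drives defence against fungi that kill host cells in Arabidopsis, had 1.03, 1.33 and 1.84 CPM in HL-Cleo, against 11.9, 11.6 and 9.46 CPM in CT-Cleo (-2.996 ± 0.20), and WRKY53 (LOC102614924), a factor of leaf senescence and defence, had 5.53, 5.95 and 5.77 CPM in HL-Cleo, against 34.4, 28.8 and 39.3 CPM in CT-Cleo (-2.57 ± 0.17). WRKY40 (LOC102626219) went the other way, with 109, 104 and 112 CPM in HL-Cleo, against 17.8, 14.2 and 16.2 CPM in CT-Cleo (2.75 ± 0.12). Of 99 ERF and DREB factors 12 were higher and 33 lower (median -0.31). ERF1A (LOC102614159), of the ethylene and jasmonate response, had 2.69, 4.11 and 4.18 CPM in HL-Cleo, against 24.9, 19.4 and 31.4 CPM in CT-Cleo (-2.79 ± 0.23), and the cold factor DREB1D (LOC102618196) had 0.144, 0.456 and 0.223 CPM in HL-Cleo, against 9.28, 9.86 and 16.4 CPM in CT-Cleo (-5.40 ± 0.49). DREB2A, listed as dehydration-responsive element-binding protein 2A (LOC102610198), a factor upstream of HSFs in Arabidopsis heat responses, had 58.3, 63.3 and 54.8 CPM in HL-Cleo, against 7.26, 6.08 and 6.64 CPM in CT-Cleo (3.14 ± 0.13). Of 76 MYB factors 5 were higher and 21 lower (median -0.10), with 3 higher without CT-Cleo replicate 3 or HL-Cleo replicate 3.

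NAC factors went against this direction: 29 of 74 were higher and 14 lower (median 0.28). NAC 71-like (LOC102621589) had 388, 397 and 386 CPM in HL-Cleo, against 31.6, 26.3 and 29.6 CPM in CT-Cleo (3.74 ± 0.10). NAC29 (LOC102608057), of a type that speeds leaf senescence in Arabidopsis, had 2.22, 2.24 and 2.18 CPM in HL-Cleo, against 19.2, 16.8 and 22.1 CPM in CT-Cleo (-3.13 ± 0.12). No library of one group reached the range of the other in either gene.

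Hormone genes were lower more often than higher. Of 32 jasmonate genes 5 were higher and 11 lower (median -0.20). TIFY proteins (JAZ) repress jasmonate responses and are themselves induced by jasmonate. TIFY 10A-like LOC102616825 had 1.11, 1.49 and 1.76 CPM in HL-Cleo, against 13.1, 12.3 and 19.7 CPM in CT-Cleo (-3.38 ± 0.25), and TIFY 10A-like LOC102617127, TIFY 9 (LOC102630561) and TIFY 5A-like (LOC102609610) also fell (-1.94 ± 0.19, -1.91 ± 0.16 and -1.84 ± 0.20). Of 17 ethylene genes 1 was higher and 7 lower (median -0.23), among them EIN3-binding F-box protein 1 (LOC102607641, -1.12 ± 0.10), which holds ethylene signalling down. Of 91 auxin genes 6 were higher and 31 lower (median -0.19), with auxin-responsive IAA29 (LOC102625468) at -1.81 ± 0.31. Of 43 cytokinin genes 4 were higher and 14 lower (median -0.23), and the early response regulator ARR6 (LOC102614357) fell (-1.05 ± 0.14). Of 47 abscisic acid genes 10 were higher and 13 lower (median -0.15). Its catabolic 8'-hydroxylases moved in opposite directions: CYP707A1 had 2.67, 1.85 and 1.59 CPM in HL-Cleo, against 21.5, 18.2 and 15.3 CPM in CT-Cleo (-3.15 ± 0.19), and CYP707A4 had 34.9, 30.6 and 32.7 CPM in HL-Cleo, against 5.84, 5.61 and 4.65 CPM in CT-Cleo (2.61 ± 0.12).

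Of 136 calcium and MAP kinase signalling genes 29 were higher and 48 lower (median -0.14). A pair of genes carries the name MAP kinase kinase kinase 18, a kinase of abscisic acid signalling. LOC102619746 had 6.66, 6.45 and 4.32 CPM in HL-Cleo, against 33.98, 30.2 and 43.0 CPM in CT-Cleo (-2.61 ± 0.22), and LOC102628791 had 13.4, 14.2 and 14.5 CPM in HL-Cleo, against 2.11, 2.01 and 2.59 CPM in CT-Cleo (2.65 ± 0.14). MAP kinase kinase 9 (LOC102610970) fell (-1.95 ± 0.12).

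Phosphate and nitrate genes were lower more often than higher. Of 66 phosphate starvation genes 7 were higher and 31 lower (median -0.25). The phosphodiesterase GDPD1 (LOC102608187), which frees phosphate from lipid head groups, had 3.76, 3.85 and 5.08 CPM in HL-Cleo, against 39.7, 36.3 and 47.0 CPM in CT-Cleo (-3.29 ± 0.14). SPX1 (LOC102629287), a phosphate sensor that is induced when phosphate is short, had 16.9, 17.5 and 16.99 CPM in HL-Cleo, against 107, 106 and 135 CPM in CT-Cleo (-2.76 ± 0.09), and MGD2 (LOC102614331), which makes galactolipid in place of phospholipid, fell (-2.58 ± 0.26). GDPD3-like (LOC102610916) had 104, 109 and 116 CPM in HL-Cleo, against 16.6, 15.9 and 16.3 CPM in CT-Cleo (2.75 ± 0.07), opposite to GDPD1. Of 78 nitrate transport and assimilation genes 8 were higher and 30 lower (median -0.28), among them the transporters NRT1/PTR 4.3-like (LOC102620976, -1.84 ± 0.17) and, rising, NRT1/PTR 4.6 (LOC102607539, 1.90 ± 0.14).

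Of 132 expansin, xyloglucan and pectin genes, which loosen or remodel walls, 6 were higher and 34 lower (median -0.33, and -0.19 at the floor of 3 counts). Without CT-Cleo replicate 3 the counts were 10 higher and 22 lower. Expansin-like A1 (LOC102629326) had 1.54, 0.556 and 0.837 CPM in HL-Cleo, against 7.06, 6.42 and 10.1 CPM in CT-Cleo (-2.99 ± 0.21). Of 31 aquaporins 6 were higher and 3 lower (median 0.08), and the largest change among called members whose mean log2 CPM was 1 or more was in PIP1-2 (LOC102628631), a plasma membrane channel with 311, 288 and 339.7 CPM in HL-Cleo, against 42.6, 35.6 and 46.4 CPM in CT-Cleo (2.91 ± 0.12). Of 61 flavonoid genes 14 were higher and 10 lower (median -0.07), and of 125 phenylpropanoid and lignin genes 10 were higher and 22 lower (median 0.00), with 6 higher without HL-Cleo replicate 1 and 19 in unmarked libraries alone. The shares higher and lower were 23.0% and 16.4% of flavonoid genes and 8.0% and 17.6% of phenylpropanoid genes, beside 17.7% and 18.0% of all genes. Called members of both lists went either way, with rises of up to 2.63 and 5.50 at any level of expression. The gene of flavonoid 3'-monooxygenase (LOC102630520), which adds a hydroxyl group to the B ring, had 22.9, 24.9 and 20.8 CPM in HL-Cleo, against 86.1, 82.2 and 83.6 CPM in CT-Cleo (-1.87 ± 0.12), and phenylalanine ammonia-lyase (LOC102607860), the entry enzyme, had 105, 101 and 87.1 CPM in HL-Cleo, against 241, 233 and 228 CPM in CT-Cleo (-1.26 ± 0.13). Of 39 carotenoid genes 13 were higher and 3 lower (median 0.08), beta-carotene hydroxylase (LOC102578021) among the risers (0.69 ± 0.08).

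**Figure D2:**
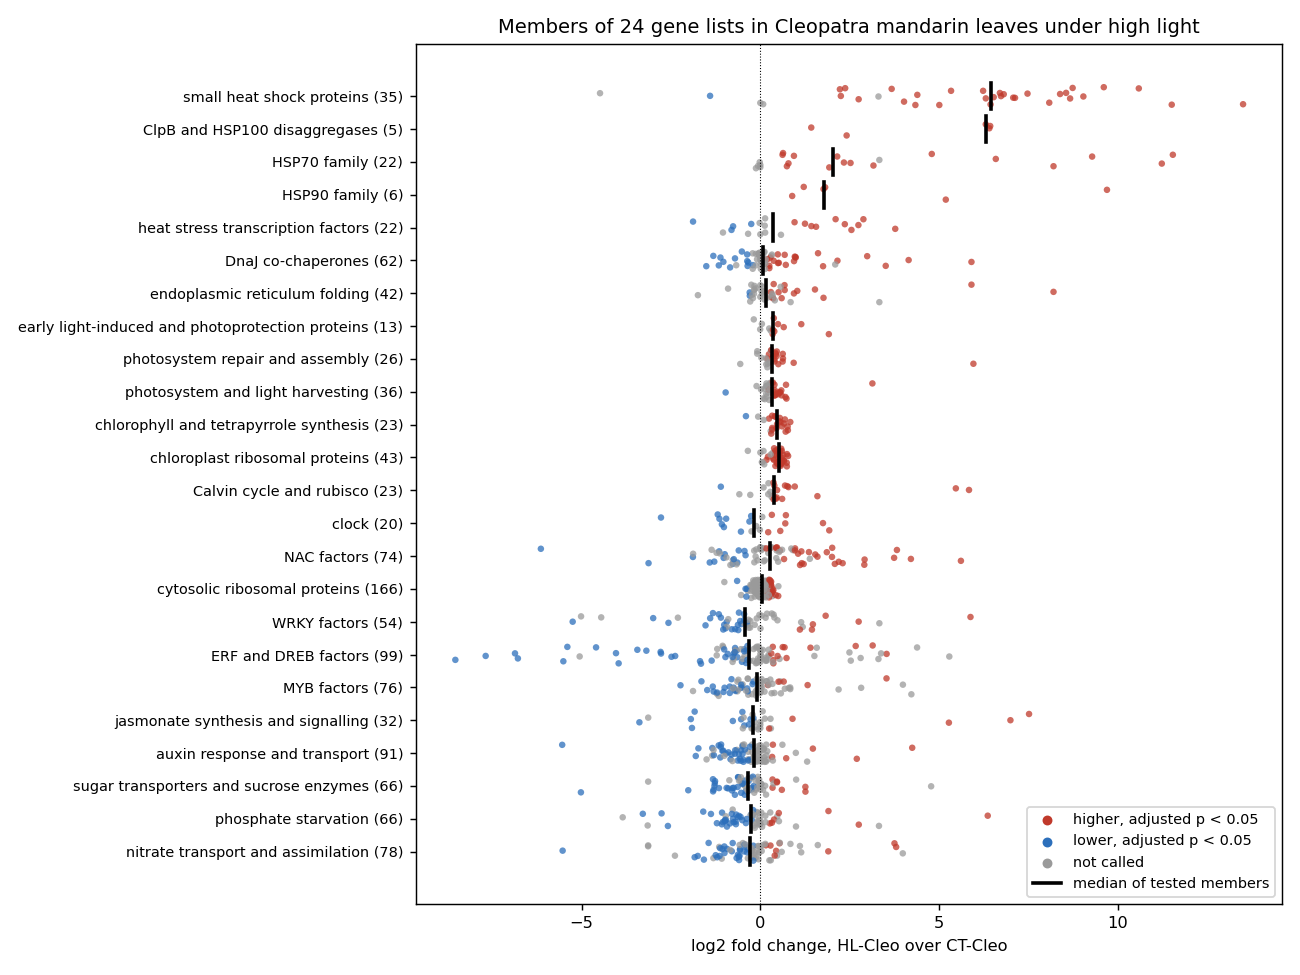
Log2 fold change (HL-Cleo over CT-Cleo) of every tested member of 24 gene lists, with the number of members in brackets; red points were called higher and blue points lower at an adjusted p below 0.05, grey points were not called, and black bars are medians. The bars of small heat shock proteins and ClpB lie above 6, those of chloroplast lists just right of 0, and those of the WRKY, ERF, sugar, phosphate and nitrate lists left of it.

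The other treatments of Cleopatra mandarin set these levels in context; they are given as means ± SD of 3 libraries, without a test. ClpB1 (LOC102620452) stood at 4955 ± 185 CPM under HL, 86.2 ± 1.96 under HS, 141 ± 0.960 under WS, 234.2 ± 15.1 under WS+HL, 278 ± 5.38 under WS+HS, 4944 ± 515 under HL+HS, 2531 ± 195 under all 3 stresses and 62.6 ± 2.06 in CT. HSF30 (LOC102620157) stood highest under HL (5489.9 ± 229 CPM), followed by HL+HS (2523 ± 75.03) and all 3 stresses (1231 ± 136), and was at 666 ± 14.6 under WS+HL, 320.3 ± 30.3 under HS and 401 ± 20.5 in CT. Both genes were thus much lower under water stress with high light than under high light alone. The inducible rubisco activase gene (LOC102630057) stood at 2227 ± 171 CPM under HL, 1959.7 ± 52.01 under HS, 8695 ± 314 under HL+HS and 39.0 ± 2.16 in CT. Early light-induced protein 1 (LOC102578039) followed another order, with 5430.1 ± 449.7 CPM under WS+HL, 4166 ± 443 under HL+HS, 2826 ± 199 under WS, 2526 ± 118 under HL, 214 ± 15.7 under HS and 1141 ± 125 in CT. APRR5 (LOC102631246) was lowest under HL at 30.0 ± 0.917 CPM, against 89.7 ± 3.999 under HS, 444 ± 11.6 under WS and 206 ± 11.5 in CT. SPX1 (LOC102629287) was also lowest under HL and highest in CT.

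**Figure D3:**
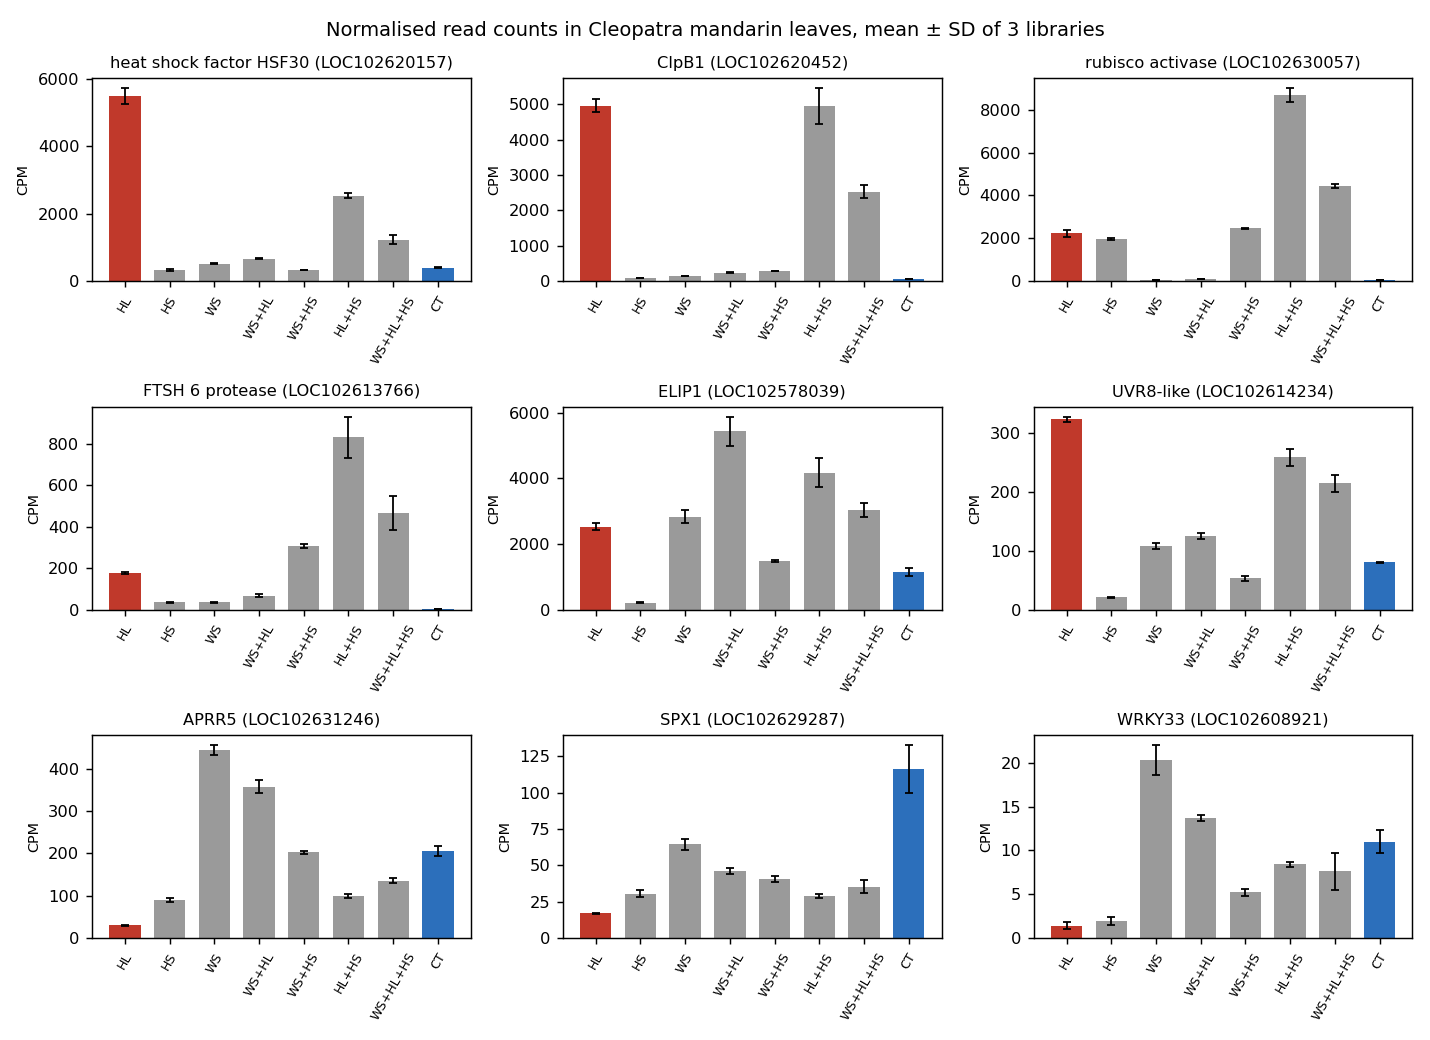
Normalised read counts (CPM, linear axes from 0) of 9 genes in Cleopatra mandarin leaves under 8 treatments, as means with SD of 3 libraries; HL is red, CT blue and the others grey, with WS for water stress and HS for heat stress. HSF30 and UVR8-like are highest under HL, ClpB1 is about as high under HL as under HL+HS, and APRR5, SPX1 and WRKY33 are lowest under HL.

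Whether Cleopatra mandarin answered high light as Carrizo citrange did was tested as an interaction, the log2 fold change in Cleo minus that in Car. It was called in 3659 genes (15.4%), 1842 (7.77%) higher and 1817 (7.66%) lower in the Cleo response. This count was less stable than the others: it ranged from 2903 to 5269 with each library left out in turn, with 2824 higher without HL-Car replicate 1, and was 1790 when the fit held just the 12 libraries compared. CT-Car replicates 1 and 3 and HL-Car replicate 1 also carry the unexplained column mark, so the mark is unevenly spread over the groups. With the mark as a term 4194 genes were called, 2170 higher and 2024 lower. Unmarked libraries leave only CT-Car replicate 2 in its group. In Car itself, 4379 genes (18.5%) were called, 9.69% of all genes higher and 8.77% lower in HL-Car than in CT-Car.

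Heat shock proteins had a higher response in Cleo more often than a lower one. Of 35 small heat shock proteins 12 had a higher and 2 a lower log2 fold change in Cleo (median difference 1.00). It was higher in Cleo for 8 of 22 HSP70 genes, 4 of 6 HSP90 genes and 4 of 5 disaggregases, and lower for none of them. Of 22 heat stress transcription factors 7 were higher and 3 lower in the Cleo response (median difference -0.02), with a median log2 fold change of 0.36 in Cleo and 0.76 in Car, and of 28 chaperonins 3 were higher and 2 lower (median difference 0.05). ClpB1 (LOC102620452) rose by 6.31 ± 0.09 in Cleo and 4.94 ± 0.08 in Car, a difference of 1.37 ± 0.10. HSF30 (LOC102620157) stood at 5489.9 ± 229 CPM in HL-Cleo, 2555 ± 459 in HL-Car, 401 ± 20.5 in CT-Cleo and 400.2 ± 60.3 in CT-Car, so controls of like level stood beside unequal levels under high light (difference 1.10 ± 0.14). ERDJ3A (LOC102617203) rose by 5.91 ± 0.09 in Cleo and 2.92 ± 0.08 in Car (difference 2.98 ± 0.11). BAG6 (LOC102629351) already differed between the controls: it stood at 260.0 ± 12.4 CPM in HL-Cleo and 917 ± 132 in HL-Car, but at 3 counts over all of CT-Cleo and 242 ± 14.6 CPM in CT-Car.

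Some genes rose far more in Cleo than in Car. Zinc transporter 2 (LOC102628184), of the ZIP family of metal carriers, stood at 234.3 ± 19.98 CPM in HL-Cleo and 17.7 ± 5.05 in CT-Cleo, and at 24.8 ± 1.23 in HL-Car and 22.1 ± 1.06 in CT-Car (difference 3.56 ± 0.15). An endo-1,3;1,4-beta-D-glucanase-like gene (LOC102612413) had 69.9, 65.1 and 73.6 CPM in HL-Cleo, against 2.40, 2.25 and 2.93 CPM in CT-Cleo and changed by 0.65 ± 0.13 in Car (difference 4.13 ± 0.19). NRT1/PTR 3.1-like (LOC102609680) rose by 3.75 ± 0.32 in Cleo against 0.00 ± 0.17 in Car (difference 3.76 ± 0.37). PIP1-2 (LOC102628631) and GDPD3-like (LOC102610916) also had higher responses in Cleo (differences 2.28 ± 0.16 and 2.60 ± 0.10). A pair of 21 kDa seed protein-like genes (LOC102606769 and LOC107175685) had large called differences (4.54 ± 1.10 and 4.39 ± 1.18) that came from HL-Cleo replicate 3 alone. They had 6.70 and 2.62 CPM there and at most 0.123 CPM in the other HL-Cleo libraries. Without it the differences were 0.25 and -0.13, neither called.

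The TIFY and WRKY genes named in this paragraph fell in Cleo and rose in Car. Of 99 ERF and DREB factors 1 was higher and 30 lower in the Cleo response (median difference -0.37), of 54 WRKY factors 5 and 17 (-0.55), and of 76 MYB factors 2 and 14 (-0.28). Of 32 jasmonate genes 3 were higher and 6 lower in the Cleo response (median difference -0.08), and of 17 ethylene genes 1 was higher and 5 lower (-0.17). TIFY 10A-like (LOC102616825) had a log2 fold change of -3.38 ± 0.25 in Cleo and 1.44 ± 0.24 in Car (difference -4.82 ± 0.34), and TIFY 5A-like (LOC102609610) of -1.84 ± 0.20 in Cleo and 2.09 ± 0.22 in Car (difference -3.93 ± 0.30). WRKY53 (LOC102614924) stood at -2.57 ± 0.17 in Cleo and 1.53 ± 0.17 in Car, and WRKY33 (LOC102608921) at -2.996 ± 0.20 in Cleo and 0.61 ± 0.17 in Car (differences -4.10 ± 0.24 and -3.61 ± 0.26). Mitochondrial uncoupling protein 5 (LOC102626775), a carrier of the inner membrane, had 3.54, 2.90 and 2.96 CPM in HL-Cleo, against 34.3, 24.4 and 32.6 CPM in CT-Cleo and a log2 fold change of 1.13 ± 0.17 in Car (difference -4.41 ± 0.25). Of the 5 largest lower differences among genes whose mean log2 CPM over the 12 libraries was 3 or more, 3 were in 5.8S ribosomal RNA genes (LOC112495954, LOC112495819 and LOC112498455), with differences of -3.34 ± 1.06, -3.29 ± 1.06 and -3.32 ± 1.10. They held 30.4 to 31.9 CPM in CT-Cleo replicate 3 and at most 5.03 CPM in the 5 other libraries of the pair. Without that library the differences were -1.50, -1.53 and -1.53, and none was called. Without HL-Car replicate 3 they were -1.98, -1.99 and -1.94, also not called. Their calls were lost as well without HL-Cleo replicate 1 or 3 or CT-Car replicate 1 or 2, where the differences moved less.

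**Figure D4:**
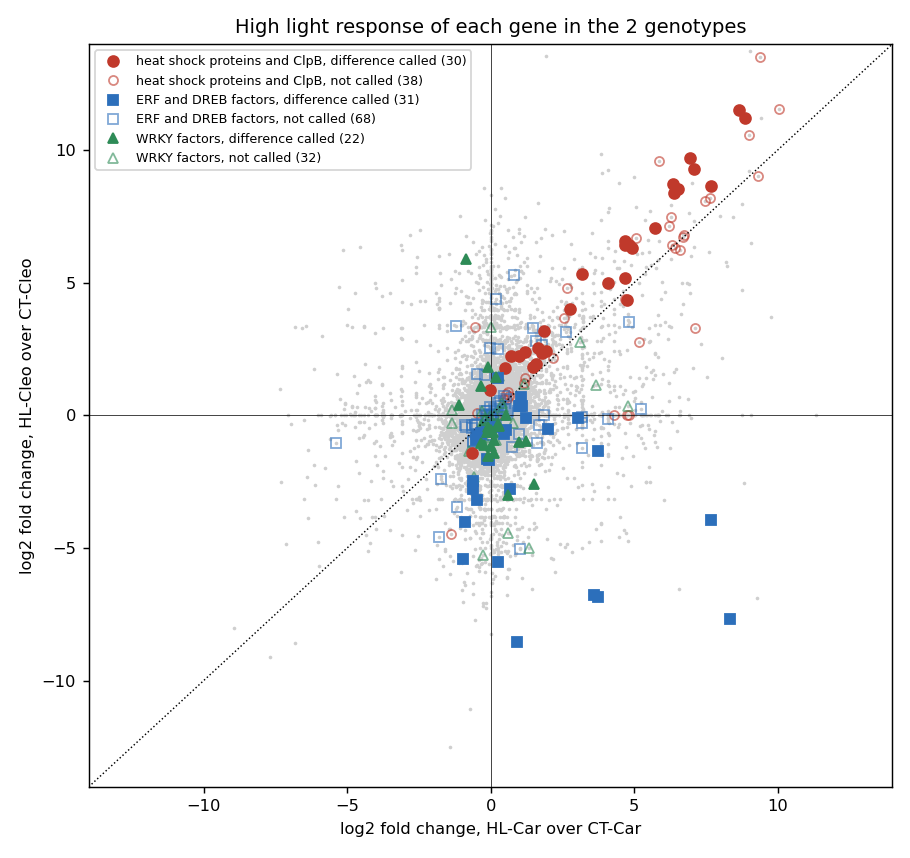
Log2 fold change under high light in Cleopatra mandarin (vertical axis) against that in Carrizo citrange (horizontal axis) for each gene tested; filled symbols of a list have a called difference between the genotypes and the dotted line marks equal responses. Most filled red circles (heat shock proteins and ClpB) lie above the line, and filled blue squares (ERF and DREB) and green triangles (WRKY) mostly below it.

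High light was also set against heat stress alone, since heat shock genes are the textbook response to heat. HL-Cleo and HS-Cleo differed in 12145 genes (51.2%), 6046 (25.5%) higher and 6099 (25.7%) lower in HL-Cleo. Of 35 small heat shock proteins 29 were higher and 1 lower in HL-Cleo than in HS-Cleo (median log2 difference 3.72), and all 5 disaggregases were higher. The 18.1 kDa class I protein (LOC102621606) stood at 357 ± 8.36 CPM in HL-Cleo and 0.128 ± 0.0254 CPM in HS-Cleo (11.44 ± 0.31), and NAC 71-like (LOC102621589) at 390.2 ± 6.22 CPM in HL-Cleo and 3.49 ± 0.4997 CPM in HS-Cleo (6.79 ± 0.12). Not all heat-responsive genes parted this way, as the inducible rubisco activase (LOC102630057) differed by 0.18 ± 0.07 (adjusted p = 0.0287), a call lost without HL-Cleo replicate 1 or 3 or HS-Cleo replicate 1 or 2 (adjusted p = 0.068 to 0.179).

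Of 13 photoprotection genes 12 were higher and 0 lower in HL-Cleo (median 1.22), with early light-induced protein 1 (LOC102578039) at 2526 ± 118 CPM in HL-Cleo and 214 ± 15.7 CPM in HS-Cleo (3.56 ± 0.12). UVR8-like (LOC102614234) differed by 3.98 ± 0.10. Of 43 chloroplast ribosomal proteins 37 were higher and 0 lower, of 166 cytosolic ones 122 higher and 9 lower, of 27 photorespiration genes 23 higher and 3 lower, and of 46 proteasome subunits 33 higher and 0 lower. Against CT-Cleo, HS-Cleo was lower in 113 and higher in 8 cytosolic ribosomal genes, and 18 and 3 photorespiration genes. For proteasome subunits the counts were 33 and 1, and for photoprotection 11 and 0, beside 27.4% and 27.1% of all genes. The same lists had medians of 0.04, 0.02, 0.06 and 0.35 in HL-Cleo over CT-Cleo. A higher level in HL-Cleo than in HS-Cleo is thus not by itself a rise under high light. Of 36 photosystem and light harvesting genes 10 were higher and 13 lower in HL-Cleo than in HS-Cleo, beside 25.5% and 25.7% of all genes. A split of this kind is thus not particular to them. Among genes whose mean log2 CPM was 3 or more, the largest differences in the other direction were in ARR5-like (LOC102617764, -4.18 ± 0.10), a cytokinin response regulator, tropinone reductase homolog At2g29170-like (LOC102610117, -4.24 ± 0.36), dnaJ 11-like (LOC107176357, -4.04 ± 0.11), CONSTANS-LIKE 16 (LOC102617814, -3.99 ± 0.09) and UDP-glycosyltransferase 73C3-like (LOC102621540, -3.65 ± 0.12). ARR5-like stood at 5.95 ± 0.450 CPM in HL-Cleo and 108 ± 2.68 CPM in HS-Cleo.

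**Figure D5:**
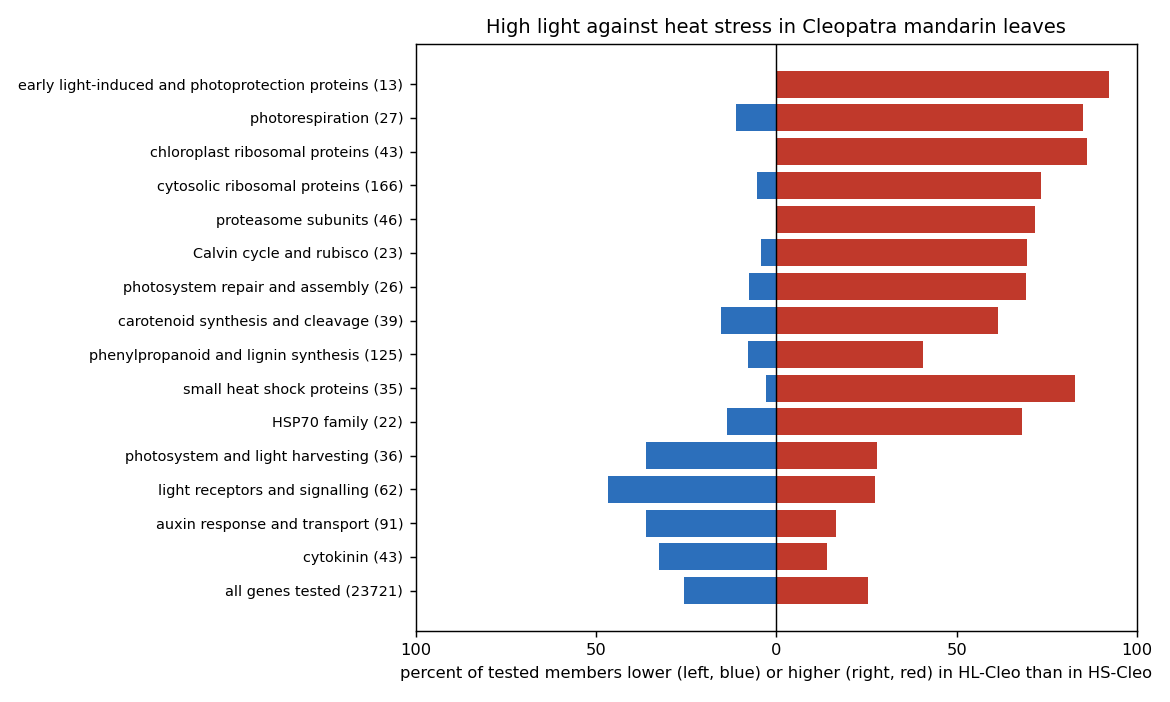
Percent of the tested members of 15 gene lists, and of all genes, called higher (red, to the right) or lower (blue, to the left) in HL-Cleo than in HS-Cleo, with the number of tested members in brackets. Photoprotection, photorespiration and ribosomal lists extend far to the right, while light signalling, auxin and cytokinin lists extend further to the left than to the right.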

How the data were processed

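Libraries were made from leaf RNA with a stranded mRNA kit, per the labels' protocols. The software listed, per the submitters' processing notes, was FastQC 0.11.7, HISAT2 2.1.0 and StringTie 2.1.3b. The table deposited by the authors gives 3 values per gene and library (TPM, FPKM and a read count), per the file headers. The table's name gives the sweet orange assembly Csi_valencia_1.0, so mandarin reads were counted on another species' genes. Counts made with StringTie come from coverage and may be rounded estimates. How reads with several alignments were treated is not given in the sources used here. Of 6 libraries compared, 3 were HL-Cleo and 3 CT-Cleo.

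In R 4.3.3, edgeR 4.0.16 was run on the deposited counts: filterByExpr over the 16 groups, TMM scaling, 16 group means fitted to all 48 libraries by quasi-likelihood (32 residual degrees of freedom, common biological coefficient of variation 11.2%) and Benjamini-Hochberg adjustment over 23721 genes, called below 0.05. The contrasts were HL against CT in Cleo, that response minus the one in Car, and HL against HS in Cleo. Counts for HL against CT in Car and for HS against CT in Cleo came from the same fit. Standard errors were derived from the F statistic. CPM use the TMM-scaled library size. TPM values deposited by the authors served only to compare levels between genes; FPKM were not used. The test was also run on simulated counts with the same spread for every gene and no library set apart. That run does not cover a library such as CT-Cleo replicate 3, and its outcome is not given here.

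Words in the gene descriptions chose the members of the 58 lists, which can misplace a gene. The same gene can be on several lists. The members and lists were chosen with earlier results of these data known. Genes named in the text are the 12 largest rises and falls among called genes with a description, a mean log2 CPM of at least 3 and groups that do not overlap, up to 4 called members of a list with the largest change and a mean log2 CPM of at least 1 (any member of lists up to 15), the 5 largest differences each way to Car and to HS at a mean log2 CPM of at least 3, the 5 most abundant called genes, and genes named in earlier work. Medians at a floor set groups with at most 3 counts to 3 counts. Alternatives were DESeq2 1.42.0 (Wald test, and its size factors), no filter, a replicate block, a fit to just the libraries compared, each library left out, unmarked libraries only, the column mark as a term, and no ribosomal RNA or chloroplast genes. Sequences and promoter motifs were not used here.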

Additional observations from a re-analysis of the deposited data

Results flagged for a closer look

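The response to high light differed between Cleopatra mandarin and Carrizo citrange in 3659 genes, tested as an interaction in edgeR. Each value below is a log2 fold change in Cleo minus that in Car, for genes whose difference is named above. Among chaperone genes it was 2.98 for ERDJ3A (LOC102617203), 1.37 for ClpB1 (LOC102620452) and 1.10 for HSF30 (LOC102620157). Among transport, wall and lipid genes it was 3.56 for zinc transporter 2 (LOC102628184), 3.76 for NRT1/PTR 3.1-like (LOC102609680), 2.28 for aquaporin PIP1-2 (LOC102628631), 4.13 for the endo-1,3;1,4-beta-D-glucanase-like gene (LOC102612413), 2.60 for GDPD3-like (LOC102610916) and -4.41 for mitochondrial uncoupling protein 5 (LOC102626775). Among jasmonate and WRKY genes it was -4.82 for TIFY 10A-like (LOC102616825), -3.93 for TIFY 5A-like (LOC102609610), -4.10 for WRKY53 (LOC102614924) and -3.61 for WRKY33 (LOC102608921).

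The differences of both 21 kDa seed protein-like genes (LOC102606769 at 4.54 and LOC107175685 at 4.39) rested on HL-Cleo replicate 3, without which neither was called, with values of 0.25 and -0.13. Those of the 5.8S ribosomal RNA genes (-3.34 for LOC112495954, -3.29 for LOC112495819 and -3.32 for LOC112498455) were not called without CT-Cleo replicate 3, with values of -1.53 to -1.50, nor without HL-Car replicate 3, with values of -1.99 to -1.94. These calls were also lost without HL-Cleo replicate 1 or 3 or CT-Car replicate 1 or 2, and with only the libraries compared.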

How the results depend on the processing

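The counts of genes called for HL against CT and HL against HS in Cleo stayed within 1.5 times of the values above under every alternative run. For HL against CT they were 9010 with DESeq2's Wald test, 7252 with only the 6 libraries of the comparison, and 7308 to 7950 with each library left out (3667 to 3890 higher, 3602 to 4091 lower). For HL against HS they were 11078 to 11407 with each library left out (5611 to 5739 higher, 5467 to 5695 lower). Of the 8463 genes called for HL against CT, 7479 (88.4%) were also called in unmarked libraries alone, where they were 82.1% of 9115. The interaction with Car was less stable: 1790 genes with only its own libraries (748 higher, 1042 lower, so 41.8% higher), and 2903 to 5269 with each library left out (1437 to 2824 higher, 1428 to 2445 lower). The cause was not tested. The difference of LOC107175685 was -0.13 without HL-Cleo replicate 3 and up to 5.06 with another library left out. The median log2 fold change over all genes tested stayed at 0.00 at the floor of 3 counts. With the replicate number as a replicate block the counts were 8458, 3627 and 12136. Deviations of same-numbered HL-Cleo and CT-Cleo libraries correlated by 0.124, 0.0242 and 0.152. HL-Cleo replicates 1 and 3 correlated best with the CT-Cleo library of their own number, and replicate 2 with CT-Cleo replicate 1 (0.0468). Whether equal numbers mark a shared origin was not tested. Counting intervals cover counting error only, and genes near 0 counts in a group, such as BAG6, have a ratio but no precise fold change.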

Other observations

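Further gene groups were described in the same contrast of HL-Cleo with CT-Cleo. Of 35 dehydrins, LEA proteins and raffinose-family enzymes, which protect drying cells, 14 were higher and 2 lower (median log2 fold change 0.42). Galactinol synthase 1 (LOC102616851), the first enzyme of raffinose synthesis and a known HSF target in Arabidopsis, had 25.3, 22.9 and 26.4 CPM in HL-Cleo, against 0.146, 0.544 and 0.343 CPM in CT-Cleo (6.17 ± 0.25), and the next enzyme, a galactinol-sucrose galactosyltransferase-like gene (LOC102612163), had 9.95, 9.15 and 8.90 CPM in HL-Cleo, against 1.55, 1.13 and 1.07 CPM in CT-Cleo (2.90 ± 0.21). The groups were far apart in both. Of 62 metal and iron genes 17 were higher and 22 lower (median -0.17), with zinc transporter 2 (LOC102628184) at 3.73 ± 0.11. Of 29 markers of dividing cells 2 were higher and 2 lower (median -0.19), with 1 to 3 in either direction without a single library, and 1 of them, cyclin-dependent kinase B1-2 (LOC102622283), had 26.2, 24.6 and 29.2 CPM in HL-Cleo, against 2.51, 2.12 and 2.42 CPM in CT-Cleo (3.50 ± 0.11).

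Of 118 PR proteins, chitinases and glucanases 28 were higher and 26 lower (median 0.00). Chitinase CHI1, an enzyme that cuts fungal walls, had 26.8, 36.9 and 38.7 CPM in HL-Cleo, against 1.78, 0.957 and 2.61 CPM in CT-Cleo (4.27 ± 0.40), with all high light libraries above the controls. Seed lectin-like (LOC102628131), one of the most abundant called genes, had 6533, 6216 and 6653 CPM in HL-Cleo, against 1375, 1402 and 1640.4 CPM in CT-Cleo (2.13 ± 0.12), and 21 kDa seed protein-like (LOC102621677) had 6494, 6126 and 6639.6 CPM in HL-Cleo, against 10222, 9724 and 13628 CPM in CT-Cleo (-0.80 ± 0.14). Of 67 cuticle and wax genes 12 were higher and 10 lower (median 0.00), with 3-ketoacyl-CoA synthase 4 (LOC102626149), which extends fatty acids for wax, at 1.21 ± 0.13 and the alcohol-forming fatty acyl-CoA reductase-like gene (LOC102621145) at -1.61 ± 0.36. With the column mark as a term, 13 cuticle and wax genes were higher and 17 lower. Alpha-farnesene synthase-like (LOC102618658), of volatile terpene synthesis, fell (-1.92 ± 0.30). Among markers of other leaf cell types, 1 of 8 guard cell, 3 of 18 epidermis and 4 of 28 vascular genes were higher, and 0, 2 and 5 were lower. Without a single library 1 to 3 vascular and 0 or 1 guard cell genes were higher. The summed guard cell markers held 25.5 to 28.4 CPM in HL-Cleo and 11.5 to 34.8 CPM in CT-Cleo, and 3 of the 8 were at 0 counts in each group.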
